A study of Mus musculus with 2 samples.

Results

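Very long genes, here those spanning at least 400 kb of the mouse genome, were compared between untreated embryonic stem cells and cells given Adriamycin. The span of a gene was taken as the distance from its smallest to its largest exon position in the deposited count tables (genome build GRCm39). Genes also needed at least 80 reads summed over both libraries. Of 55414 genes in the tables, 378 reached that span and 168 of these also reached the read minimum. The other 210 long genes had fewer reads. The read minimum uses the counts that are compared, so it admits some genes through the library in which they are high. The comparison asks whether gene length matters under a topoisomerase II poison.

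Both groups were wild-type cells of the mouse embryonic stem cell line R1E, grown in serum medium with LIF (leukemia inhibitory factor), which holds mouse stem cells in the undifferentiated state. The untreated group was labelled 0 h and the treated group received 0.5 µM Adriamycin (doxorubicin) for 8 h. Each group had 1 library and no replicate, and the labels do not tell whether both cultures were grown in parallel. Treatment, time in culture and differences between the cultures or preparations therefore cannot be told apart, no test between groups was possible, and all values describe these libraries. A difference in RNA per cell cannot be told apart from a difference in the mix of cells either.

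The tables held 41820999 reads for the untreated and 38561292 for the Adriamycin library, with at least 1 read on 25333 and 27096 genes. The stem cell markers Pou5f1, Sox2, Nanog, Klf4, Zfp42 and Esrrb each had at least 6395 reads in either library, and their summed level was 3745 CPM (reads scaled to library size) untreated and 1942 CPM with Adriamycin. Of 10 fibroblast markers 4 were at 0 in both libraries (Col3a1, Postn, Lum and Dcn), and the list summed to 44.1 and 131 CPM. Most of the Adriamycin sum came from Fbln2 (6.21 and 53.7 CPM) and Col1a1 (5.38 and 31.9 CPM). Bgn and Pdgfrb were higher too, while Thy1 (12.2 and 11.0 CPM) and Col1a2 (1.48 and 1.53 CPM) were nearly level. Of 10 neuron markers Dcx was at 0 in both, and the list summed to 583 and 356 CPM. Most of that sum came from Stmn2 (379 and 236 CPM) and Tubb3 (141 and 71.3 CPM). Map2, Elavl3 and Elavl4 were lower with Adriamycin as well, while Rbfox3, Syt1, Syn1 and Snap25 were higher.

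A polymerase that transcribes a very long gene stays on the template for hours and passes through introns that make up nearly all of the locus. Topoisomerases relieve the twist that builds up around it, and Adriamycin traps topoisomerase II on cut DNA. Many of the longest mammalian genes encode adhesion molecules, ion channels and scaffolds of neurons, and some of them lie in common fragile sites, regions that tend to break under replication stress. DNA breaks also activate p53, a transcription factor that binds paired copies of a short recognition sequence, each copy being called a half-site.

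Promoter sequences show what RefSeq starts of these genes look like. RefSeq promoters (build GRCm38.p6, 250 bases before to 50 after the most upstream start) were matched by symbol to 128 of the 168 genes. The coordinates of the printed promoters are on GRCm38.p6 and cannot be set against the GRCm39 gene positions given elsewhere. A RefSeq start may lie inside the span of the counted gene, which was not checked. The first pair is from genes that were higher with Adriamycin and that hold a p53 half-site, which is in capitals; it begins 190 bases before the start of Hivep3 (chr4:119814428-119814727, plus strand) and 4 bases before that of Ctnnd2 (chr15:30172284-30172583, plus strand). Both were picked from the genes with a half-site after their values were seen.
Hivep3: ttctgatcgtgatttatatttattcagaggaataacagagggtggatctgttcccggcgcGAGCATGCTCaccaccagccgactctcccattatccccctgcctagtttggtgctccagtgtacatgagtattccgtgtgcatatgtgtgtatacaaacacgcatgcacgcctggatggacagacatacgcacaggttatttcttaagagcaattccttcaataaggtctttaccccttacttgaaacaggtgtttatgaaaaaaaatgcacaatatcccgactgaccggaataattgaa
Ctnnd2: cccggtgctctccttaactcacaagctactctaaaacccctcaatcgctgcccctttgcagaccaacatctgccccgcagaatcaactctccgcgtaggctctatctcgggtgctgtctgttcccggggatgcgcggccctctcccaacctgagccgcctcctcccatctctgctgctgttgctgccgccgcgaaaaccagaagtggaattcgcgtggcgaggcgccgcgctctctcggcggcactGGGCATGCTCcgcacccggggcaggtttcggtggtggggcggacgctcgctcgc
The second pair shows a gene far higher and a gene far lower with Adriamycin, with CG pairs in capitals. Fstl4 (chr11:52764456-52764755, plus strand) holds 29 CG pairs and Enox1 (chr14:77156513-77156812, plus strand) holds 42, against a median of 20 over the promoters of all genes with at least 80 reads.
Fstl4: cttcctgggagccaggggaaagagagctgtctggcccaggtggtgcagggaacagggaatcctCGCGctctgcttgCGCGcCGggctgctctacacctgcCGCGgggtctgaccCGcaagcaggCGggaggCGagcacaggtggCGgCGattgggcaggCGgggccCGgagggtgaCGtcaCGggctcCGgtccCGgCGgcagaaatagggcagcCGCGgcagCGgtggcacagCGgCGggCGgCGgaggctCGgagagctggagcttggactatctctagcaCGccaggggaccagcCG
Enox1: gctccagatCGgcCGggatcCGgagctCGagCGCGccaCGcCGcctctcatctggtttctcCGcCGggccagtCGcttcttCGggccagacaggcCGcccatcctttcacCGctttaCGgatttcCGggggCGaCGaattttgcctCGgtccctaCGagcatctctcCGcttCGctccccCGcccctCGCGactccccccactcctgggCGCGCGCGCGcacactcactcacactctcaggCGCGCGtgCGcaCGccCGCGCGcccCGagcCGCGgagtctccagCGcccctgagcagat
Both printed promoters are thus CG-rich although the genes differed in opposite directions. Other genes far from no difference varied. Among higher genes Anks1b held 26 CG pairs and Pde4b 8, and among lower genes Sh3gl2 held 34 and Snhg14 2. So few genes do not show how CG content goes with direction. Over the 128 matched promoters the median GC content was 63.2% and the median number of CG pairs 21, against 61% and 20 for the 10901 promoters of all genes with at least 80 reads. The p53 half-site was searched by its consensus, which reads the same on both strands. It was present in 16 of the 128 promoters (12.5%), in 6.83% of those of genes with at least 80 reads and in 8.34% of all 27025 promoters in the table. Among the very long genes it was found for 7 of 33 that were at least 2-fold higher (Hdac9, Kif26b, Hivep3, Ctnnd2, Reln, Maml3 and Thsd4), for 0 of 6 that were at least 2-fold lower and for 9 of 89 that were neither. In shorter genes called higher the share was 9.46% of 1850. These matches describe letters in a window of 300 bases and not binding.

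Ratios are given as log2 of Adriamycin over untreated after scaling for library size, with 95% counting intervals in parentheses, which cover counting error only. Of the 168 very long genes, 41 (24.4%) had a level with Adriamycin that was 2-fold or more above the untreated one, 10 (5.95%) were lower by that factor or more, and 117 fell in between. Over all 14903 genes with at least 80 reads, 17.1% were higher and 6.94% lower by the same rule. At 4-fold or more, 17 of the very long genes were higher (10.1%, against 7.22% of all genes) and only Nfib was lower (0.705% of all genes). Their median log2 ratio was 0.20, against -0.03 over all genes, and 98 of them (58.3%) lay above 0, against 48.4% of all genes. Because the members were chosen on reads from these libraries, these shares are a description.

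The summed counts of the very long genes were 147005 reads in the untreated and 149569 reads in the Adriamycin library. These are 0.352% and 0.388% of the library totals, so the raw share was larger with Adriamycin. After scaling, which includes the TMM factors, the ratio of the sums was 0.998. The 5 genes with most reads made up 29.6% of that sum and the first 10 made up 42.0%. The counting interval of the ratio lay above 0 for 76 of the 168 genes, below 0 for 54 and included 0 for 38. With counts divided by 2, since mates of a pair may have been counted separately, these numbers were 70, 48 and 50. The interval then excluded 0 for each of the 51 genes called higher or lower. The 2-fold rule and the read minimum, applied to the same counts, largely fix that outcome, so it does not bear on the calls.

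**Figure D1:**
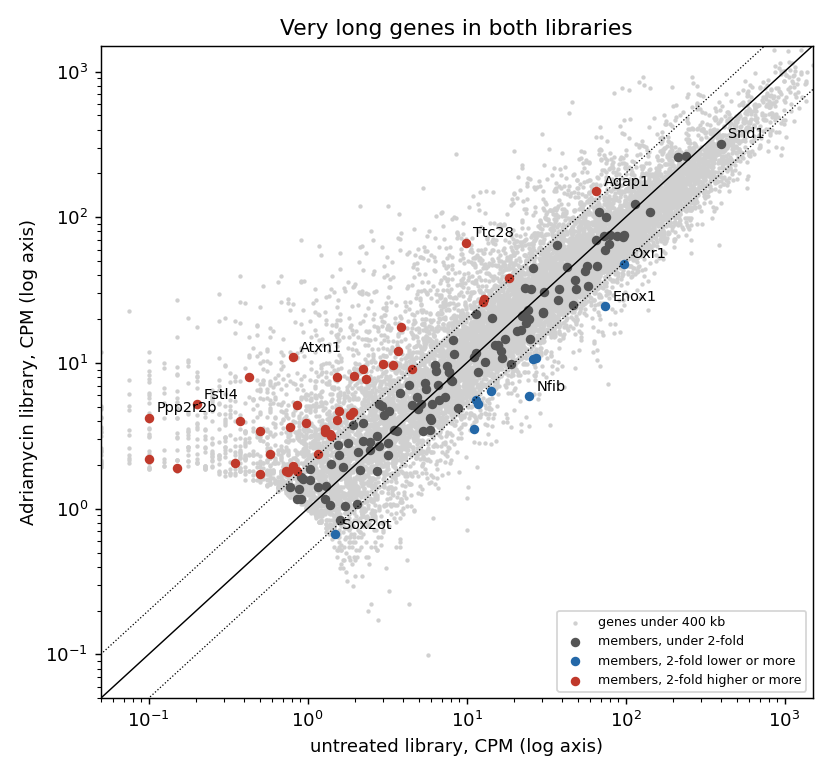
Level of each gene with at least 80 reads in the untreated library (x axis) and in the Adriamycin library (y axis), in CPM on log axes; grey points are genes under 400 kb, larger points the 168 very long genes, the solid line no difference and the dotted lines 2-fold. Most of the 41 red points (higher) lie at low untreated levels, and the abundant genes such as Snd1 lie near the line.

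The genes farthest above no difference started from few untreated reads. Fstl4, which encodes a secreted follistatin-like glycoprotein (chr11:52655461-53079365), had 8 untreated and 211 Adriamycin reads, 24.4-fold higher (log2 ratio 4.61, 3.69 to 5.92). Anks1b, a postsynaptic adaptor gene that covers 1100 kb (chr10:89709371-90809162), had 17 and 326 reads and was 18.3-fold higher (4.19, 3.53 to 5.03). Both were thus near the lower end of detection without the drug and clearly counted with it. Ppp2r2b, a regulatory subunit of protein phosphatase 2A, had 4 and 171 reads (5.23, 4.01 to 7.28). Its exons overlap 4933407I08Rik on the opposite strand and AC099605.1 on the same strand. The counting used no strand and no multi-overlap option. Reads on exon stretches shared with a neighbour on either strand would thus be left out, and counts of such genes may be incomplete. Pde4b, a phosphodiesterase that breaks down cyclic AMP, had 4 and 89 reads (4.29, 3.04 to 6.35). Their intervals are wide because 4 reads set the untreated level.

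Ttc28, a tetratricopeptide repeat gene (chr5:111027669-111437646), stood out among the higher genes by its depth, with 396 untreated and 2714 Adriamycin reads, 6.72-fold higher (2.75, 2.60 to 2.90). Atxn1, whose product ataxin 1 binds RNA and transcriptional corepressors, had 32 and 445 reads (3.75, 3.25 to 4.34), and its exons overlap Gmpr on the opposite strand. Agap1, a GTPase-activating protein of Arf proteins (chr1:89382528-89825339), was the only one of the 10 most abundant genes past the 2-fold line, with 2609 and 6134 reads (1.21, 1.14 to 1.27). Ttc28 and Agap1 were thus well counted in both libraries. By contrast, 27 of the 41 higher genes had a mean of under 5 CPM and 4 had at least 20 CPM.

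The 10 lower genes covered a narrower range of ratios. Nfib, a transcription factor of the nuclear factor I family (chr4:82208410-82623987), had 983 untreated and 240 Adriamycin reads and was 4.17-fold lower (log2 ratio -2.06, -2.27 to -1.86). Enox1, a cell-surface oxidase gene (chr14:77394203-77959200), had 2953 and 996 reads (-1.60, -1.70 to -1.49), and Gm6994 lies on the opposite strand of one of its exons. Zmat4, a zinc finger gene, had 441 and 144 reads (-1.64, -1.92 to -1.37). These genes were well counted in both libraries. Sh3gl2, the endophilin A1 gene that acts in synaptic vesicle endocytosis, had 1088 and 439 reads (-1.34, -1.50 to -1.18). Oxr1, an oxidation resistance gene, had 3916 and 1947 reads (-1.04, -1.12 to -0.96), just past 2-fold. Slc7a11, the cystine transporter that supplies glutathione synthesis, had 471 and 211 reads (-1.18, -1.43 to -0.95).

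Both non-coding RNAs among the 168 genes were on the lower side. Snhg14, the long host transcript that runs antisense to Ube3a in the Prader-Willi region (chr7:58957672-59625507), had 1035 untreated and 434 Adriamycin reads (-1.28, -1.45 to -1.12). Its exons overlap those of Ube3a on the opposite strand and Gm38393 on its own strand. Reads on shared stretches would be left out, so its counts may be incomplete. Sox2ot, a transcript whose locus surrounds the pluripotency gene Sox2 (chr3:34158419-34736768), had 59 and 27 reads (-1.14, -1.87 to -0.48). The remaining lower genes were Erc2, a presynaptic active zone protein, with 566 and 261 reads (-1.14) and overlapping Gm45645, and Gphn, the gephyrin gene, with 456 and 225 reads (-1.05) and overlapping Gm48226.

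The 10 very long genes with most reads were under 2-fold apart from Agap1. Snd1, which encodes an RNA-binding nuclease, had most reads, with 15812 untreated and 12955 Adriamycin reads (-0.32, -0.35 to -0.28). Exoc4, a subunit of the exocyst, had 9587 and 10752 reads (0.14), and Dst, the cytoskeletal linker dystonin, had 8515 and 10587 reads (0.29). Etl4 had 5644 and 4405 reads (-0.39). None of these 4 differed by as much as 1.5-fold. Utrn, the utrophin gene, had 4557 and 4965 reads (0.10). Robo1, an axon guidance receptor, had 2725 and 4426 reads (0.67), and Nav2, a neuron navigator gene, had 3005 and 4101 (0.42). Dock1, an activator of Rac, had 3877 and 3061 reads (-0.37), close to the -0.40 of the receptor phosphatase gene Ptprk with 3831 and 2958 reads. Exons of 59 of the 168 genes overlap those of another annotated gene, so that their counts are less certain. Among the genes named here and below without their neighbour, these include Dst, Etl4, Nav2, Ptprd, Magi2, Tenm3, Tenm4, Foxp1, Zfp407, Bcas3, Vps13b, Grid1, Hivep3, Kif26b, Reln, Cacna1d, Kcnn2 and Dlgap1. Per kb of exon, Snd1 stood at 40.7 CPM untreated, Exoc4 at 19.1 and Oxr1 at 13.8, while the median over the 168 genes was 0.522 CPM per kb, against 5.36 for genes under 400 kb.

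The 10 longest genes, all above 1 Mb, held no gene past the 2-fold line in either direction. This set is small, and over all genes only 17.1% were higher and 6.94% lower by the same rule. Fgfr2, a fibroblast growth factor receptor, was longest by the exon positions, 2961 kb, with 264 untreated and 287 Adriamycin reads (0.09). A single gap between exons makes up 95.1% of that span, and the GENCODE M21 annotation gives the same length; its exons overlap Ctbp2 on the same strand. Dmd, the dystrophin gene (chrX:81992476-84249747, 2257 kb), had 1919 and 1512 reads (-0.37, -0.47 to -0.27). Dmd was the best counted of the very longest genes, and its interval was narrow. Ptprd, a receptor phosphatase of 2271 kb, had 66 and 78 reads (0.21, -0.28 to 0.71), and Macrod2, a mono-ADP-ribose hydrolase gene of 1998 kb, had 321 and 307 (-0.09). Cntnap2, a neurexin-family adhesion gene of 2245 kb, had 212 and 138 reads (-0.65, -0.97 to -0.33). Pde4d, a cyclic AMP phosphodiesterase gene of 1504 kb, had 760 and 399 reads (-0.96, -1.14 to -0.78), just short of 2-fold. Pde4d and its shorter relative Pde4b thus lay on opposite sides of no difference. Dab1, an adaptor of reelin signalling, had 653 and 489 reads (-0.44), Ccser1 221 and 269 (0.26), and the scaffold gene Magi2 51 and 47 (-0.14).

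**Figure D2:**
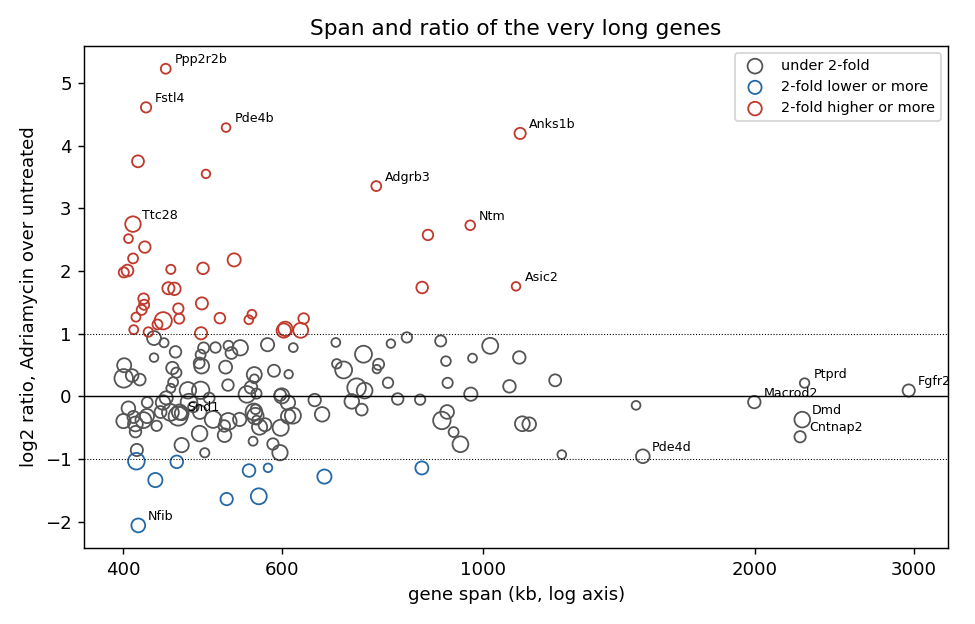
Log2 ratio, Adriamycin over untreated (y axis), against gene span in kb (x axis, log scale) for the 168 very long genes; larger circles have a higher mean CPM and dotted lines mark 2-fold. Of the 41 circles past the upper line 26 lie between 400 and 500 kb, Anks1b and Asic2 are the only 2 past the upper line at or above 1000 kb, and no circle at or above 1000 kb lies past the lower line.

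The share of genes called higher was larger in the longer span classes of the whole table. It was 15.6% under 10 kb, 16.8% from 10 to 30 kb, 17.4% from 30 to 100 kb, 19.1% from 100 to 200 kb, 23.3% of 450 genes from 200 to 400 kb and 24.4% of the 168 genes at or above 400 kb. The share called lower showed no such order, with 8.72% in the shortest class, 4% from 200 to 400 kb and 5.95% in the longest. The median log2 ratio was 0.12 from 200 to 400 kb and between -0.05 and -0.02 in all shorter classes. Within the very long genes the order was the other way round. In classes set after the values were seen, 26 of 72 genes of 400 to 500 kb were higher (36.1%), 9 of 53 of 500 to 700 kb, 4 of 27 of 700 to 1000 kb and 2 of 16 at or above 1000 kb (Anks1b and Asic2). Over the 96 genes of at least 500 kb, 15 were higher, which is 15.6% and the same as in genes under 10 kb. Spearman's rho between span and log2 ratio was 0.03 across all 14903 genes and -0.14 across the 168. Within bands of mean CPM over all genes it was 0.30 under 2 CPM, 0.22 from 2 to 5, 0.16 from 5 to 10, 0.05 from 10 to 20 and -0.01 in both higher bands. These values are a description, since genes share the libraries and are not independent replicates.

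**Figure D3:**
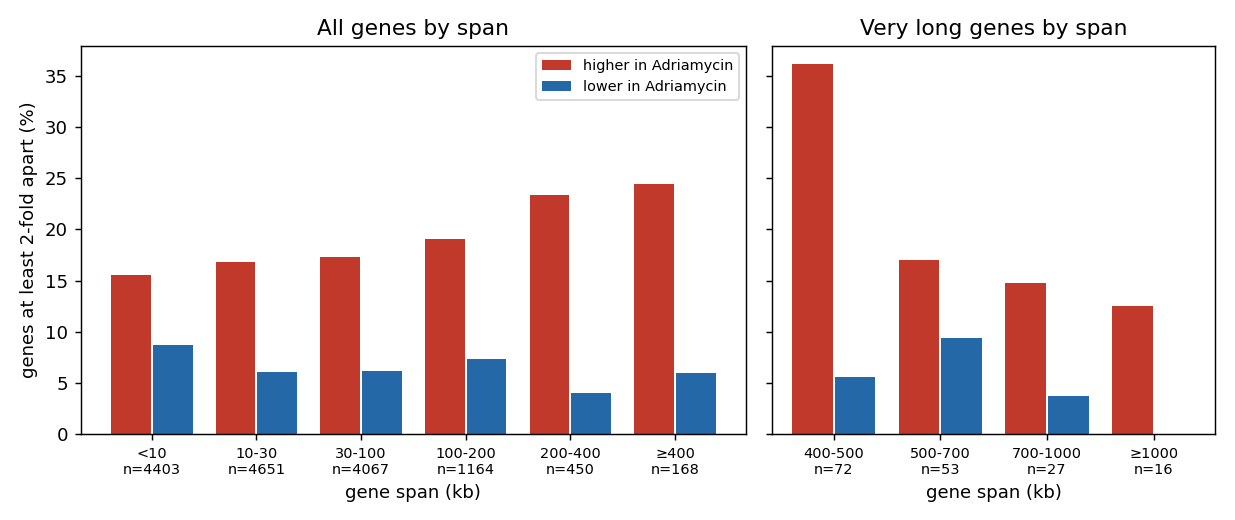
Share of genes at least 2-fold higher (red) or lower (blue) with Adriamycin, in percent, by gene span in kb; left, all genes with at least 80 reads, right, the 168 very long genes alone, with the number of genes under each pair of bars. The red bars grow from 15.6% to 24.4% on the left and fall from 36.1% to 12.5% on the right.

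Level differed between very long and shorter genes, and the ratio moved with level. The very long genes had a median of 6.42 CPM over both libraries and the genes under 400 kb 24.1 CPM. Under 10 CPM, 35 of 102 very long genes were higher (34.3%) and 4 were lower (3.92%), against 28.9% higher and 8.6% lower among shorter genes at that level. At or above 10 CPM, 6 of 66 were higher and 6 lower (9.09% each), against 10.9% and 6.11% of shorter genes. Spearman's rho between mean CPM and log2 ratio was -0.40 across the 168 genes and -0.26 across all genes. When shares of genes under 400 kb were weighted to the very long genes' numbers in 6 bands of mean CPM, 22.5% were higher, beside the 24.4% observed, which is 37.8 genes against 41. For lower genes the matched share was 7.47%, beside 5.95%. The band medians of the log2 ratio of genes under 400 kb, averaged with the same weights, gave 0.16. This average is not a like measure to the plain median of 0.20 of the very long genes. From the lowest to the highest band, the medians of the very long genes were 0.62, 0.78, 0.26, -0.31, -0.25 and -0.17. Those of genes under 400 kb were 0.36, 0.37, 0.18, 0.10, -0.05 and -0.25.

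The matched comparison depended on what was matched and where the span limit was drawn. With bands of CPM per kb of exon, a choice made after seeing the data, the matched share of higher genes was 31.5%, above the observed 24.4%. Among genes of 400 to 500 kb 36.1% were higher beside a matched 22.9%, among those of at least 500 kb 15.6% beside 22.1%, and among the 450 genes of 200 to 400 kb 23.3% beside 18.1%. With at least 40 reads required in the untreated library alone, 23 of 148 very long genes were higher (15.5%), beside 12.4% of all genes, and with 40 reads in the Adriamycin library alone 53 of 182 (29.1%), beside 19.4%.

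**Figure D4:**
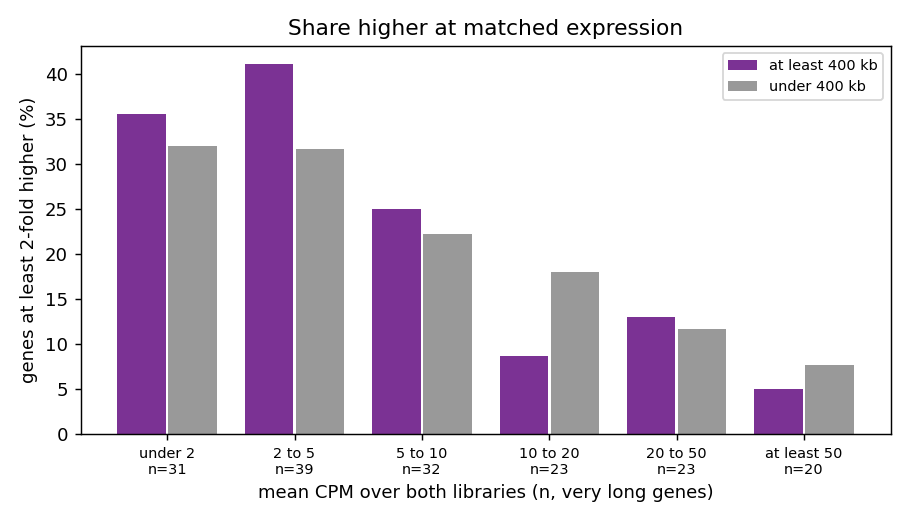
Share of genes at least 2-fold higher with Adriamycin (y axis, percent) in bands of mean CPM over both libraries (x axis) for genes of at least 400 kb (purple, numbers under the bars) and under 400 kb (grey). Both shares are highest under 5 CPM; the purple bar is above the grey one in 4 of 6 bands and below it from 10 to 20 CPM and at or above 50 CPM.

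Gene structure was compared between the higher, the lower and the other very long genes. Exons made up a median of 1.76% of the span of the 168 genes, with 26 merged exons and 11243 exonic bases, against 9 exons and 4114 bases for genes under 400 kb. Higher genes had a median of 23 merged exons and 12315 exonic bases, lower genes 20.5 and 9019, and those that were neither 27 and 11115. Exons made up 2.5% of the span in higher, 1.66% in lower and 1.72% in the other genes, and the median span was 460 kb, 536 kb and 559 kb. Higher genes were thus shorter in span and had more exonic sequence than lower genes, of which there were only 10. The longest gap between exons had a median of 150 kb in higher, 152 kb in lower and 156 kb in the other genes. In 16 genes a single gap took more than 50% of the span, among them Slc7a11 (85.6% of its span), Asic2 (74.8%) and Kirrel3 (71.6%). Of these 16, 3 were higher, 3 were lower and 10 were neither. The shares higher and lower were 24.4% and 5.95% of the 168 and 17.1% and 6.94% of all genes. The subset is too small to be set against them. Spearman's rho with the log2 ratio was 0.06 for exonic length, -0.03 for merged exons and 0.04 for the longest gap, again as a description.

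By known role, 109 of the 168 genes fell into at least one of 7 overlapping lists. Counts in these lists are small, and they depend on which genes were listed. They are to be read against the 17.1% higher and 6.94% lower of all genes. The shares of the very long genes were 24.4% and 5.95%. Level differed as well, with a median of 4.88 CPM for adhesion and guidance, 2.83 for channels and receptors and 4.14 for signalling. It was 7.40 CPM for transcription factors and 28.8 for scaffolds. Of genes under 400 kb, 31.6% were higher at 2 to 5 CPM, 22.3% at 5 to 10 and 11.7% at 20 to 50. A part of role beside level was not tested. Among 17 adhesion and axon guidance genes, 5 were higher (29.4%, against 17.1% of all genes) and 0 lower (against 6.94%), with a median log2 ratio of 0.62 and 14 above 0. Adgrb3, an adhesion G protein-coupled receptor of synapses, had 15 untreated and 161 Adriamycin reads (3.35, 2.63 to 4.27), and the cell-surface gene Ntm (neurotrimin) had 20 and 138 (2.73, 2.08 to 3.51). Ctnnd2, a neural catenin whose promoter with a half-site is printed above, had 93 and 317 reads (1.74, 1.40 to 2.09). Kirrel3, an immunoglobulin-type adhesion gene, had 30 and 72 reads (1.22), and Fras1, an extracellular matrix gene that overlaps Gm42604, had 34 and 73 (1.06). All 5 started below 100 reads. The better counted members were under 2-fold, among them the guidance receptor Dcc with 252 and 395 reads (0.62), the Robo ligand gene Slit3 with 218 and 295 (0.41), Tenm4 with 1697 and 1843 (0.09), Tenm3 with 2282 and 1879 (-0.31) and the polarity gene Pard3 with 2919 and 3040 (0.03).

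Among the 12 ion channel and neurotransmitter receptor genes of the list, 3 were higher and 0 lower, with a median of 0.48 and 10 above 0. The 25% that were higher are close to the 24.4% of all very long genes, beside 17.1% of all genes, and 6.94% of all genes were lower. These shares depend on the list, which left out 2 channel genes. Cacna1d had 23 untreated and 97 Adriamycin reads (2.03, higher), and Kcnn2 had 194 and 238 (0.27). Cacna1e, the pore subunit of a voltage-gated calcium channel, had 6 untreated and 77 Adriamycin reads (3.55, 2.47 to 5.14), the acid-sensing channel Asic2 had 20 and 70 (1.75, 1.05 to 2.58), and the kainate receptor subunit Grik4 had 46 and 96 (1.03, 0.51 to 1.57). All 3 were scarce in both libraries. The potassium channel gene Kcnh7 had 117 and 204 reads (0.77) and the muscarinic receptor gene Chrm3 120 and 177 (0.53). The calcium release channels went different ways, with 310 and 349 reads for Ryr2 (0.14) and 233 and 140 for Ryr3 (-0.76). Cacna2d1, an auxiliary calcium channel subunit, had 265 and 227 reads (-0.25). Kcnh7 overlaps Gca and Ryr3 overlaps Aven on the opposite strand. Beside these channel and receptor genes, the neuron marker list had 1 higher gene (Rbfox3, itself a very long gene) and 2 lower ones among 7 with at least 80 reads. Of 6 fibroblast markers with at least 80 reads, 3 were higher. The part of either marker list in the result was not tested.

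The 22 kinase, phosphatase, phosphodiesterase and signalling genes had 7 higher (31.8%, against 17.1% of all genes) and 0 lower (against 6.94%), with a median of 0.37 and 15 above 0. Beside Ppp2r2b and Pde4b, Prkce, a protein kinase C, had 78 untreated and 329 Adriamycin reads (2.04, 1.69 to 2.42) and overlaps AC154542.1. Rasgef1b, an exchange factor of Ras-type GTPases, had 77 and 187 (1.25), and the phosphodiesterase gene Pde10a had 55 and 133 (1.24). Kalrn, an exchange factor for small GTPases, had 515 and 1108 reads (1.08, 0.93 to 1.23), and the kinase gene Mast4 had 507 and 1070 (1.05, 0.90 to 1.21) with Cd180 on the opposite strand. Kalrn and Mast4 were the 2 best counted higher genes of this list and lay just past 2-fold. Lrba had 3118 and 2676 reads (-0.25) and the kinase gene Camk1d 2217 and 1737 (-0.38), both under 2-fold. Exons of Lrba overlap Mab21l2.

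Among 20 transcription factor, chromatin and RNA-binding genes, 6 were higher (30%, against 17.1% of all genes) and 1 was lower (5%, against 6.94%), with a median of 0.03 that lay below 0 when libraries were scaled by their upper quartile. Beside Atxn1, Hdac9, a class IIa histone deacetylase, had 34 untreated and 209 Adriamycin reads (2.57, 2.06 to 3.16). The zinc finger genes Zfp536 with 147 and 493 reads (1.71) and Glis3 with 63 and 190 (1.56) were higher too, and so were the splicing factor gene Rbfox3 with 51 and 144 (1.46) and Creb5 with 32 and 79 (1.26). Zfp536 spans 302 kb in GENCODE M21, the only one of the 168 genes under 400 kb there. Among the abundant factors, Foxp1 had 2613 and 1881 reads (-0.50), Camta1 2295 and 1377 (-0.76), the methyltransferase gene Smyd3 1505 and 1091 (-0.49) and Zfp407 1525 and 1305 (-0.25). Zfhx3 was the exception on the upper side, with 1467 and 2614 reads (0.81, 0.71 to 0.90), and Auts2 had 1200 and 903 (-0.44). The list thus held the lowest gene of all, Nfib, next to some of the highest. It left out the higher genes Hivep3 (2.01), Maml3 (1.38) and Aff3 (1.01) and the lower zinc finger gene Zmat4 (-1.64).

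The 19 dystrophin complex, scaffold and cytoskeleton genes of the list had 2 higher (10.5%, against 17.1% of all genes) and 0 lower (against 6.94%), with a median of 0.03 that also lay below 0 with upper-quartile scaling. These counts depend on the list, which left out related synaptic adaptor and scaffold genes. Of those, Anks1b (4.19), Shank2 (2.38), Rims1 (1.48) and Grip1 (1.24) were higher and Erc2 (-1.14) was lower. Rims2 (-0.25) and Dlgap1 (-0.05) were neither. Syne1, the giant nuclear envelope protein nesprin 1 with 147 merged exons, the most of any of the 168, had 155 untreated and 716 Adriamycin reads (2.18, 1.93 to 2.44). Ank3, the ankyrin G gene, had 732 and 1549 (1.05, 0.93 to 1.18). Utrn, Dmd, Dst and Nav2 of the same list, given above, all differed by less than 1.5-fold.

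The common fragile site and housekeeping lists held none of the higher calls, although scaling by total counts gave 2 in the housekeeping list. Both lists are short. Neither reached the 17.1% higher of all genes, while 0 or 1 lower genes are near the 6.94% lower. At 10 to 20 CPM, where both list medians lie, 8.7% of the very long genes and 18.1% of genes under 400 kb were higher. A part of role was not tested. Of 14 fragile site genes, 0 were higher, 0 were lower and 4 lay above 0, with a median of -0.23. Wwox, an oxidoreductase gene in one of the best known fragile sites, had 624 untreated and 535 Adriamycin reads (-0.25). Nbea, a trafficking scaffold, had 1009 and 1308 reads (0.35) and overlaps Mab21l1. Fragile site genes had a median of 11.0 CPM, above the 6.42 CPM of all 168 genes. Of 18 metabolism, repair and membrane traffic genes, 0 were higher and 1 (Gphn) was lower, with a median of -0.17. Exoc6b, another exocyst gene, had 3541 and 3021 reads (-0.26), Bcas3 had 3188 and 3047 (-0.09), and the lipid transfer gene Vps13b had 2952 and 2418 (-0.32). Snd1 and Exoc4 belong here as well. The median of this list was 15.5 CPM. The 59 genes in no list held 18 of the higher calls and 8 of the lower ones.

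**Figure D5:**
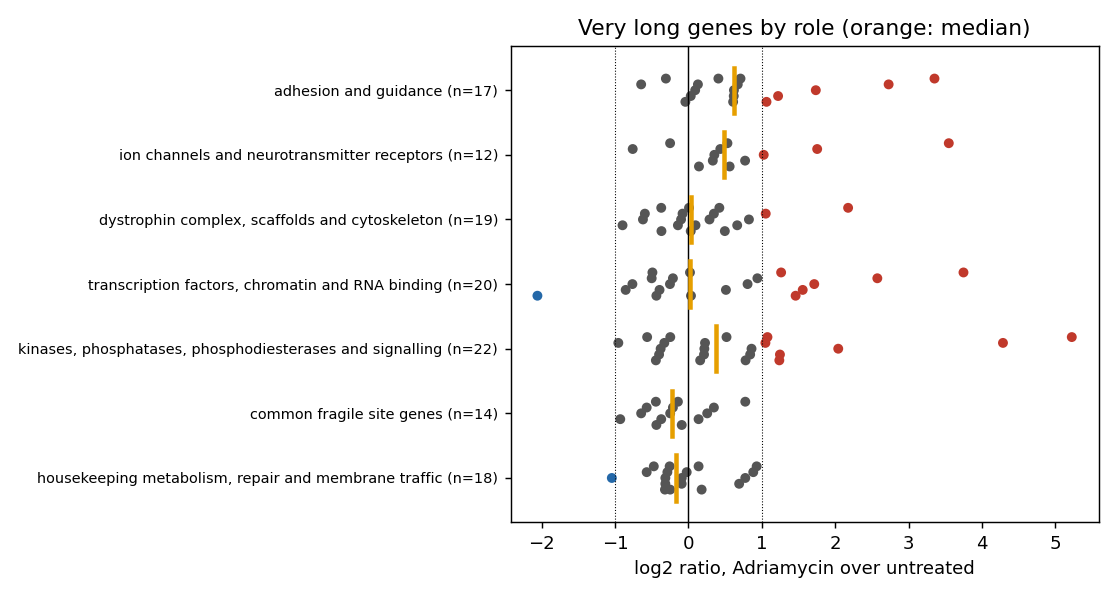
Log2 ratio, Adriamycin over untreated (x axis), of each very long gene in 7 overlapping role lists (y axis, number of genes in parentheses); red points are at least 2-fold higher, blue at least 2-fold lower, the orange bar is the list's median and dotted lines mark 2-fold. Medians run from 0.62 for adhesion and guidance to -0.23 for fragile site genes, and no red point lies in the lowest 2 lists.

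Genes that carry out elongation and relax DNA were described next to the long genes they act on. Of 51 such genes, all under 400 kb, 1 was higher and 1 was lower, with a median of -0.31. Over all genes 17.1% were higher and 6.94% lower. The 51 genes had a median of 104 CPM. Of genes under 400 kb with at least 50 CPM, 7.72% were higher and 7.15% lower, and their median log2 ratio was -0.25. Ell3, an elongation factor, had 22 untreated and 101 Adriamycin reads (2.15), and its exons overlap Serinc4. Cdk12, a kinase of the polymerase tail that sustains transcription of long genes, had 7855 and 3551 reads (-1.17). The log2 ratio was -0.82 for Top2a and -0.13 for Top2b, the topoisomerase II genes, and -0.64 for Top1. Exons of Top2b overlap Rarb. It was 0.40 for Polr2a, the large subunit of RNA polymerase II, -0.02 for the elongation kinase gene Cdk9 and -0.24 for the elongation factor gene Supt5.

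At the limits of the definition the values were mixed. The genes just inside the span limit were Bnc2 (400180 bases, 881 untreated and 683 Adriamycin reads, -0.39), Dst and Fam189a1 (39 and 158 reads, 1.98). Just outside it were Plxdc2 (399535 bases, 307 and 2238 reads, 2.84), Adk (2040 and 1496, -0.48) and Itpr2 (27 and 94, 1.75). Just inside the read minimum were Grid1 with 81 summed reads (0.43), Cacna1c with 83 (0.35) and Cacna1e with 83, and just outside it Slc35f1 with 79 (0.75), Gpc6 with 76 (-1.59) and Grin2b with 76 (-1.21). Of the 210 long genes under the read minimum, 53 had 0 reads in both libraries, 57 had 1 to 9 and 100 had 10 to 79. At least 1 read fell on 125 of them in the untreated and on 147 in the Adriamycin library. Their summed counts were 1493 and 2406 reads, 1.58-fold higher with Adriamycin after scaling.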

How the data were processed

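RNA sequencing measured 1 untreated and 1 Adriamycin library. The authors deposited unnormalized counts of reads over each gene's exons, made per the file headers with featureCounts 2.0.3 on paired reads and Ensembl release 105 exons (GRCm39), with no strand, multi-mapping or multi-overlap option. The submitters' processing notes list mm9, mm10, HISAT2 2.0.4 and, unlike the headers, featureCounts 1.6.0. Symbols came from GENCODE M21 (52081 of 55414 identifiers matched). CPM and log2 ratios (pseudocount of 0.5 read) were computed from the counts with TMM factors of 0.951 and 1.05 (edgeR 4.0.16, R 4.3.3; Python 3.11.15, pandas 2.3.3, scipy 1.17.1). Genes were called at 2-fold. Intervals are exact conditional binomial (Clopper-Pearson, 95%) and cover counting error only; mates and PCR copies are not independent molecules. The calculations were tested on simulated data.

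Members, role lists and alternatives were chosen with earlier results of these data known. Genes named are the 10 farthest higher and lower, the 10 most abundant, the 10 longest, up to 6 best counted per role list, genes at the limits and the elongation genes. The other higher genes of the role lists, the genes with a half-site and Asic2, Kirrel3, Hivep3, Kif26b, Reln, Maml3 and Thsd4 were named after their values were seen. So were Cacna1d, Kcnn2, Shank2, Grip1, Rims1, Rims2, Dlgap1 and Aff3. Some genes that this rule names are not reported here.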

Additional observations from a re-analysis of the deposited data

How the results depend on the processing

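The untreated and Adriamycin libraries had no replicates, so precision rests on counting error alone. Scaling shifted the median log2 ratio of all genes from -0.03 to 0.12 (total counts) or -0.15 (upper quartile). The very long genes then split into 45 higher and 6 lower, or 35 and 14 (all genes: 19.6% and 4.88%, or 15.2% and 9.31%). Their median lay 0.22 above that of all genes under each scaling. A scaling factor shifts all log2 ratios almost alike, so that difference could hardly change and is no check. Medians of 0.03 (scaffold and transcription factor lists) therefore have no fixed sign. With total counts the housekeeping list had 2 higher and 0 lower genes and the elongation list 2 higher. With upper-quartile factors the scaffold list had 1 higher and 1 lower, the signalling and fragile site lists 1 lower each, and the elongation list 2 lower. A minimum of 10 reads gave 79 higher (29.5%, all genes 22.0%) and 22 lower (8.21%, all genes 9.11%) of 268 genes. A minimum of 400 reads gave 14 higher of 98 (14.3%, all genes 12.5%); their median then differed from that of all genes by -0.0019, the share higher differed from the matched share by -1.54 percentage points, and the share lower exceeded it by 3.21. Without genes whose exons overlap another, 5 of 109 were lower (4.59%, all genes 7.43%) and 30 higher (27.5%, all genes 17.8%). A span of 300 kb gave 75 higher of 301 (24.9%, all genes 17.1%); 600 kb gave 10 higher (17.5%) and 2 lower (3.51%, all genes 6.94%) of 57, with the share higher differing from the matched share by -5.26 points. A 1.5-fold rule gave 61 higher (36.3%, all genes 25.7%) and 22 lower (13.1%, all genes 18.8%). A 4-fold rule gave 17 higher and 1 lower (all genes 7.22% and 0.705%). With 40 untreated reads 23 were higher (15.5%, all genes 12.4%). Bands of CPM per kb of exon gave a difference of -7.06 points. No named gene changed direction while called. No paired analysis was possible because each group had 1 library.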
